A study of Sinotaia aeruginosa with 24 samples.

Results

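Small heat shock proteins were followed through the brain and liver of the freshwater snail Sinotaia aeruginosa (also called Bellamya aeruginosa) after feeding with cadmium, polystyrene or both. The members were 3 of 233875 assembled transcript clusters: Cluster-2499.98256, Cluster-2499.82162 and Cluster-2499.83254, whose best Swiss-Prot matches were Heat shock protein beta-6, Heat shock protein beta-1 and Alpha-crystallin B chain in that order. They are called beta-6, beta-1 and Alpha-crystallin B chain here. The measured values that led to their choice are not recorded; they are taken to have been picked in this series by their liver levels under cadmium and under the combined exposure. Their liver values are therefore given as a description without a test, and tests were kept to the brain samples and to the polystyrene samples of the 2 tissues set against each other.

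Snails received exposed algae each day and were sampled on day 42. The 8 groups were brain and liver of snails given a medium concentration of cadmium together with a medium concentration of polystyrene (combined), medium cadmium alone, medium polystyrene alone, or no handling (control). Each group had 3 samples. The labels give no amount for a medium concentration, no strain, sex or age, and nothing on whether animals were pooled or whether replicates came from separate snails, so a p-value measures the spread between these samples only.

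Small heat shock proteins are chaperones that carry an alpha-crystallin domain. They hold unfolding proteins in a soluble state without using ATP and pass them to the ATP-driven HSP70 chaperones for refolding. In vertebrates, alpha-crystallin B chain (the product of CRYAB) is a lens and muscle chaperone, beta-1 (HSP27) is a stress-induced chaperone that also acts on actin filaments, and beta-6 (HSP20) is abundant in muscle. Cadmium binds protein thiols and is a classical inducer of heat shock genes.

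The names rest on distant matches. The Swiss-Prot match of beta-6 had an E-value of 6.75e-12, that of beta-1 of 3.56e-14 and that of Alpha-crystallin B chain of 2.6e-35, and the KO annotation of all 3 was CRYAB. The clusters were 2412, 3229 and 2649 bases long in that order. Alpha-crystallin B chain and 3 other family clusters had their best NR match to the same apple snail (Pomacea canaliculata) protein, named alpha-crystallin B chain-like, so reads of these related sequences could have been split between clusters and their separate values are uncertain to that degree. Beta-6 matched another apple snail protein of that name.

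Library totals ran from 13712265 to 17145998 expected counts. Each member was counted in every sample, with 126 to 1404 counts for beta-6, 138 to 1680 for beta-1 and 161 to 676 for Alpha-crystallin B chain. Levels are given as CPM (counts scaled to a common library size) after TMM scaling within a tissue, unless a sentence names the scale of both tissues. The labelled tissues were checked with marker transcripts on the scale of both tissues: Synaptotagmin-1, a synaptic vesicle protein, ran from 131 to 284 CPM in brain samples and from 13.1 to 21.6 CPM in liver samples, and Endoglucanase, a digestive enzyme, from 1.31 to 5.28 CPM in brain and from 1936 to 4726 CPM in liver. Synapsin (medians 11.8 CPM in brain and 0.217 CPM in liver) and Choline O-acetyltransferase (5.05 and 0 CPM) followed the label. Synaptosomal-associated protein 25 had medians of 39.9 CPM in brain and 47.8 CPM in liver. Neuroendocrine convertase 1 was higher in liver, with medians of 139 CPM in brain and 873 CPM in liver. Summed neuron markers overlapped, at 1667 to 2603 CPM in brain and 1592 to 1927 CPM in liver. Alpha-amylase, a digestive enzyme, still reached 825 to 3765 CPM in brain. The neuronal markers thus followed the label only in part. Muscle transcripts (86 clusters) summed to between 13019 and 50669 CPM in samples labelled brain and to between 1986 and 2844 CPM in liver.

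The control brain sample with replicate number 5 stood apart. Mitochondrially encoded transcripts summed to 55825 CPM in it, against 26930 and 25690 CPM in the other brain controls, and its mean correlation with its own group was 0.922, against 0.945 and 0.943. All 3 members were lowest in that sample among the 12 brain samples. Each member's differences from control in brain, and its departure from additivity there, are therefore given with it and without it.

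In liver, beta-6 was highest under the combined exposure, followed by cadmium, polystyrene and control. Its level was 90.8, 42.5 and 61.4 CPM in combined livers, 43.6, 49.5 and 35.5 CPM in cadmium livers, 26.4, 25.1 and 30.2 CPM in polystyrene livers and 16.96, 16.93 and 15.2 CPM in control livers. Combined livers overlapped with cadmium livers, whereas each of the other neighbours in that order was separated without overlap. The means were 64.9 ± 24.3 CPM in combined, 42.9 ± 7.05 CPM in cadmium, 27.2 ± 2.62 CPM in polystyrene and 16.4 ± 0.999 CPM in control livers (SD, n = 3 each). On the log2 scale of the edgeR fit, the difference from control was 1.99 ± 0.23 (SE) for the combined exposure, 1.39 ± 0.22 for cadmium and 0.73 ± 0.22 for polystyrene. The combined exposure lay 0.60 ± 0.22 above cadmium and 1.25 ± 0.22 above polystyrene; the difference from cadmium was 0.28 without combined replicate 1.

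Beta-1 had another order in liver, with cadmium alone above the combined exposure. Its level was 20.05, 19.96 and 16.3 CPM in combined livers, 32.3, 26.6 and 23.7 CPM in cadmium livers, 13.9, 12.6 and 15.9 CPM in polystyrene livers and 11.8, 12.6 and 10.4 CPM in control livers. Cadmium livers did not overlap with combined livers, nor combined with polystyrene livers, while polystyrene and control livers overlapped. The log2 difference from control was 0.69 ± 0.15 (SE) for the combined exposure, 1.24 ± 0.15 for cadmium and 0.28 ± 0.15 for polystyrene. The combined exposure was 0.55 lower than cadmium alone on that scale (-0.55 ± 0.15).

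Alpha-crystallin B chain was again highest under the combined exposure in liver, with the single exposures close to each other. Its level was 43.7, 35.4 and 35.2 CPM in combined livers, 19.7, 29.96 and 17.8 CPM in cadmium livers, 24.3, 22.5 and 23.1 CPM in polystyrene livers and 17.3, 18.2 and 14.5 CPM in control livers. Combined livers lay above all other livers, cadmium and polystyrene livers overlapped, and cadmium livers also overlapped with control livers. The log2 difference from control was 1.19 ± 0.18 (SE) for the combined exposure, 0.43 ± 0.18 for cadmium and 0.48 ± 0.18 for polystyrene. Without cadmium replicate 2 the difference for cadmium was 0.18.

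The departure of the combined exposure from the sum of the log2 differences of the single exposures also differed among the members in liver. It was -0.13 ± 0.31 (SE) for beta-6, -0.84 ± 0.22 for beta-1 and 0.27 ± 0.25 for Alpha-crystallin B chain, given as a description. Over all 55762 clusters tested in liver, 6.24% were called for the combined exposure, 3.46% for cadmium and 3.14% for polystyrene at an adjusted p under 0.05. The share of liver clusters that were higher than control with no overlap was 12.2% for the combined exposure, 11.5% for cadmium and 12.7% for polystyrene. Between exposures it was 9.79% for the combined exposure against cadmium, 8.97% for the combined exposure against polystyrene and 10.5% for cadmium against polystyrene, and nothing is read from the members' separation in liver, by which they are taken to have been chosen.

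**Figure D1:**
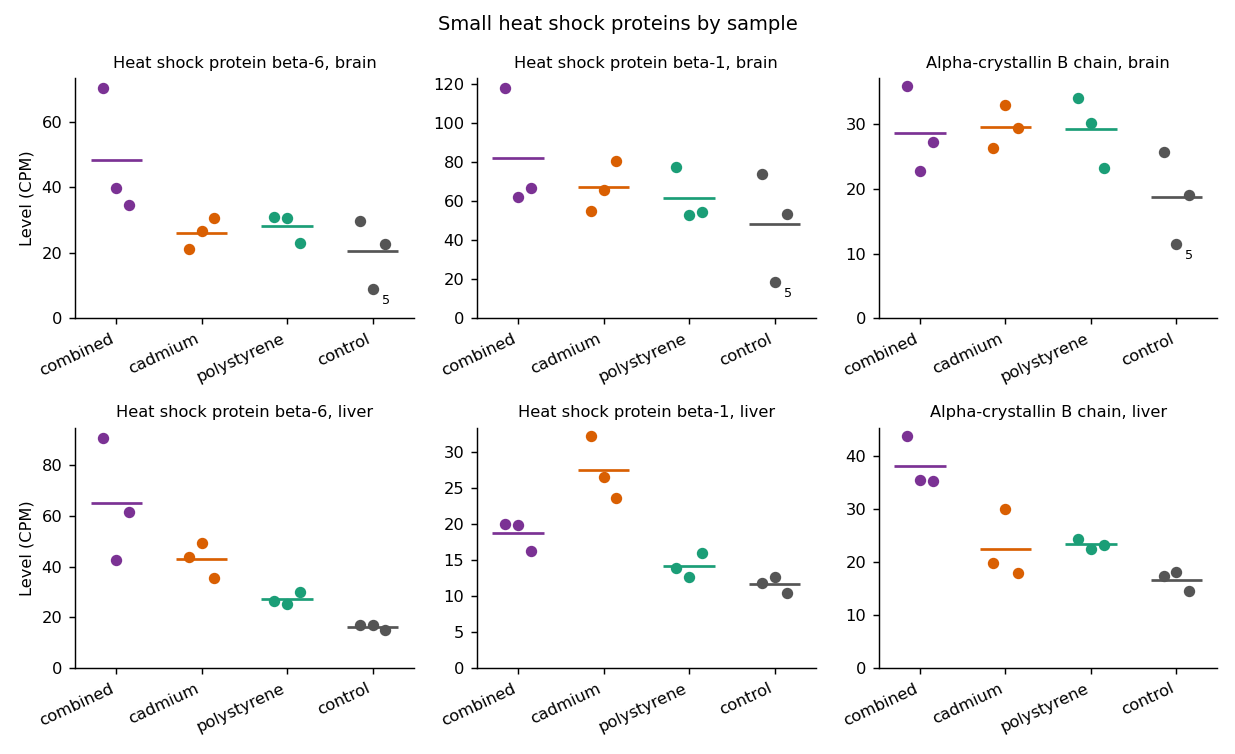
Level of each small heat shock protein in every sample (CPM after TMM scaling within the tissue, linear axis from 0), brain in the upper row and liver in the lower row. Each point is a sample, horizontal lines are group means (n = 3), and 5 marks the control brain sample that stood apart; in liver the combined samples of beta-6 (42.5 to 90.8 CPM) and of Alpha-crystallin B chain (35.2 to 43.7 CPM) lie above all control samples, and cadmium samples are highest for beta-1.

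In brain the question was whether the same exposures moved the members in samples on which their choice is taken not to rest. The 3 members were measured at similar or higher levels in exposed brains, and in none of the 7 brain comparisons (each exposure against control, the exposures against each other and the departure from additivity) was a member called by edgeR's quasi-likelihood test with Benjamini-Hochberg adjustment over 64046 clusters. Of these 21 tests, 0 passed the adjusted threshold of 0.05, 5 had an unadjusted p under 0.05, DESeq2's Wald test called 1 and edgeR without the filter on low counts called 3. The background share called in either direction was 3.92% for the combined exposure, 4.34% for cadmium and 7.08% for polystyrene against control. It was 2.79% for the combined exposure against cadmium, 3.51% for the combined exposure against polystyrene, 2.12% for cadmium against polystyrene and 5.97% for the departure from additivity.

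Beta-6 came nearest to a call in brain. Its level was 70.2, 39.7 and 34.8 CPM in combined brains, 21.3, 26.7 and 30.6 CPM in cadmium brains, 31.0, 30.6 and 22.9 CPM in polystyrene brains and 29.8, 8.96 and 22.6 CPM in control brains. All combined brains lay above all brains of the other groups, which overlapped among themselves. Of all clusters tested, 10.1% were higher in combined than in control brains with no overlap, 10.8% than in cadmium brains and 11.8% than in polystyrene brains. The log2 difference of combined from control brains was 1.24 ± 0.37 (SE, edgeR adjusted p = 0.0872), and 0.89 ± 0.28 without control replicate 5 (edgeR adjusted p = 0.12). With each brain library left out in turn, it ran from 0.87 to 1.61 (edgeR adjusted p from 0.0529 to 0.25). With no library left out, DESeq2's Wald test gave 1.25 with an adjusted p of 0.0222. EdgeR without the filter on low counts gave 1.25 with an adjusted p of 5.9e-06. Cadmium brains differed from control by 0.35 ± 0.37 (edgeR adjusted p = 0.664) and polystyrene brains by 0.46 ± 0.37 (edgeR adjusted p = 0.505), which became 0.01 and 0.13 without control replicate 5.

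Muscle transcripts moved with the combined brain samples. The 86 muscle marker clusters summed to between 36314 and 63645 CPM in combined brains, 22035 and 34383 CPM in cadmium brains, 16520 and 28772 CPM in polystyrene brains and 17015 and 32440 CPM in control brains, so combined brains lay above the rest without overlap. Between 9 and 26 of the 86 clusters were at 0 in a brain sample. The 2 clusters named exactly Troponin T together had a median of 0 CPM, while Myosin heavy chain, striated muscle ran from 3439 to 18269 CPM on the scale of both tissues. Another cluster, troponin T, skeletal muscle-like isoform X2 (Cluster-2499.79710), averaged 9.87 CPM in livers. It ranked 5 among the clusters most like beta-6 there (r = 0.89). In liver the sums were 2171 to 2222 CPM in combined, 1912 to 2250 CPM in cadmium, 1883 to 1974 CPM in polystyrene and 1621 to 1750 CPM in control samples, and between 22 and 31 clusters were at 0. Of the muscle clusters tested, edgeR called 3 of 54 higher in combined brains (2.13% of all clusters), 0 in cadmium brains (2.6%) and 3 in polystyrene brains (4.66%), where 1 was called lower. In liver it called 15 of 46 higher in combined (2.86%), 5 in cadmium (1.66%) and 3 in polystyrene samples (1.58%). DESeq2's Wald test called 16 of the 54 higher in combined, 1 in cadmium and 3 in polystyrene brains, and 1, 1 and 2 lower. In liver it called 18, 10 and 6 of 46 higher in the same order, and 0 lower. EdgeR without the filter called 9, 1 and 5 of 85 higher in brain (0, 1 and 1 lower) and 16, 12 and 8 of 77 in liver (0 lower). The counts of both over all clusters are given in the closing section. Across the 12 brain samples Pearson's r of log2 levels with the muscle sum was 0.77 for beta-6, 0.57 for beta-1 and 0.45 for Alpha-crystallin B chain, and across the 12 livers 0.82, 0.63 and 0.65 in that order; these are descriptions over samples that share library scaling and exposure. Their part in the result was not tested, and in whole-tissue RNA more muscle in a sample and more transcript per cell cannot be told apart.

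**Figure D2:**
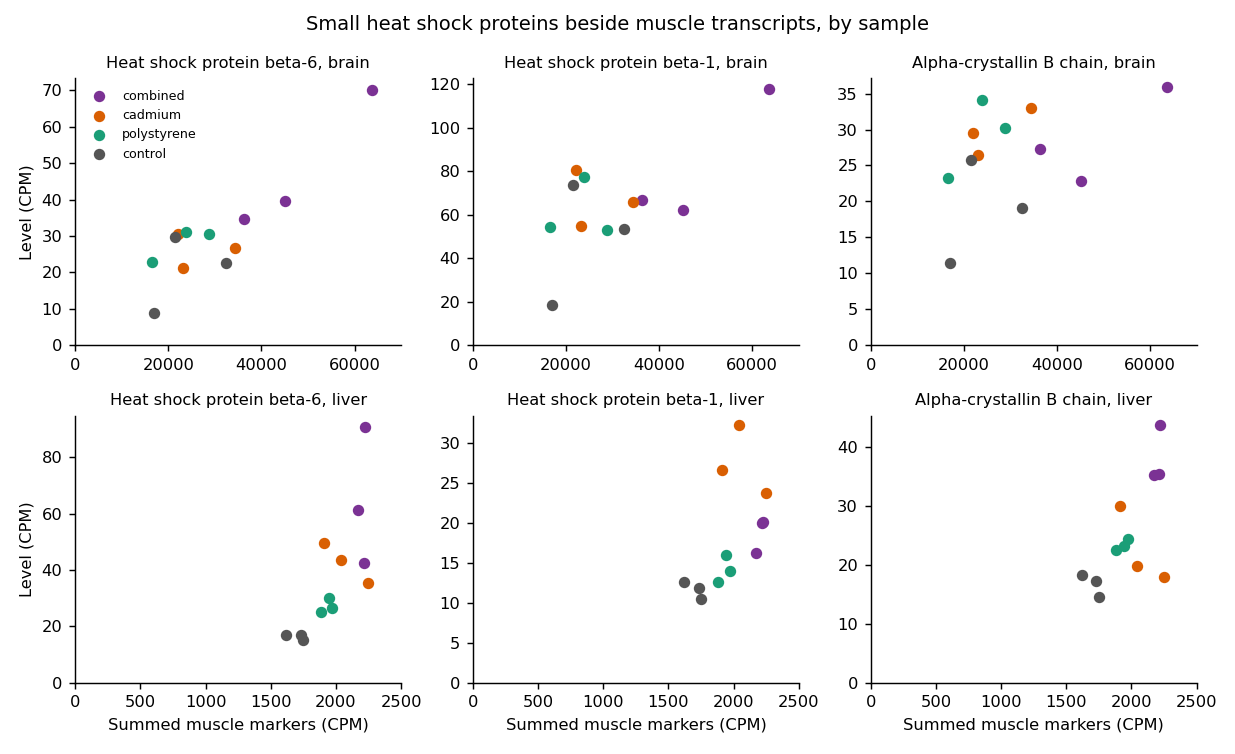
Level of each member (CPM) against the summed level of 86 muscle marker clusters (CPM) in the same sample, brain above and liver below, with linear axes from 0. Each point is a sample coloured by group; the combined brains hold the 3 highest muscle sums (36314 to 63645 CPM) and the 3 highest beta-6 levels, while the highest beta-1 levels in liver belong to cadmium samples at muscle sums of 1912 to 2250 CPM.

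Beta-1 was the most abundant member in brain and did not separate by exposure there. Its level was 118, 62.3 and 66.7 CPM in combined brains, 54.8, 65.9 and 80.5 CPM in cadmium brains, 77.5, 52.9 and 54.6 CPM in polystyrene brains and 73.8, 18.4 and 53.3 CPM in control brains. Every neighbouring pair of groups overlapped. The log2 difference from control was 0.76 ± 0.41 (SE) for the combined exposure (edgeR adjusted p = 0.37), 0.47 ± 0.40 for cadmium (edgeR adjusted p = 0.594) and 0.35 ± 0.40 for polystyrene (edgeR adjusted p = 0.675). Without combined replicate 4 the difference for the combined exposure was 0.42. Without control replicate 5 these values were 0.38, 0.09 and -0.02 in the same order, so the value for polystyrene changed sign and that for cadmium shrank to near 0.

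Alpha-crystallin B chain was at nearly the same level in all exposed brains. Its level was 35.9, 22.8 and 27.3 CPM in combined brains, 26.4, 33.0 and 29.5 CPM in cadmium brains, 34.1, 30.2 and 23.3 CPM in polystyrene brains and 25.7, 11.5 and 19.1 CPM in control brains. Cadmium brains lay above control brains, as did 12.3% of all clusters with no overlap, and the other exposed groups overlapped with control. The log2 difference from control was 0.61 ± 0.26 (SE) for the combined exposure (edgeR adjusted p = 0.245), 0.66 ± 0.26 for cadmium (edgeR adjusted p = 0.196) and 0.64 ± 0.26 for polystyrene (edgeR adjusted p = 0.168). Without control replicate 5 it was 0.37, 0.42 and 0.41 in the same order.

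Between exposures in brain, the combined samples differed from cadmium by 0.88 ± 0.37 (SE) on the log2 scale for beta-6 (edgeR adjusted p = 0.275) and from polystyrene by 0.78 ± 0.37 (edgeR adjusted p = 0.29). For beta-1 the same differences were 0.29 ± 0.40 and 0.42 ± 0.40, and for Alpha-crystallin B chain -0.05 ± 0.26 and -0.03 ± 0.26. The departure from additivity was 0.42 ± 0.52 for beta-6 (edgeR adjusted p = 0.697), -0.05 ± 0.57 for beta-1 (edgeR adjusted p = 0.98) and -0.69 ± 0.37 for Alpha-crystallin B chain (edgeR adjusted p = 0.306). Without control replicate 5 the departures were 0.75, 0.31 and -0.46 in the same order. Without combined replicate 4, beta-6 differed by 0.50 from cadmium and by 0.39 from polystyrene, with a departure of 0.01, and beta-1 by -0.07 and 0.05. With 3 samples against 3, an exact two-sided permutation test of a single value cannot go below p = 0.1.

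**Figure D3:**
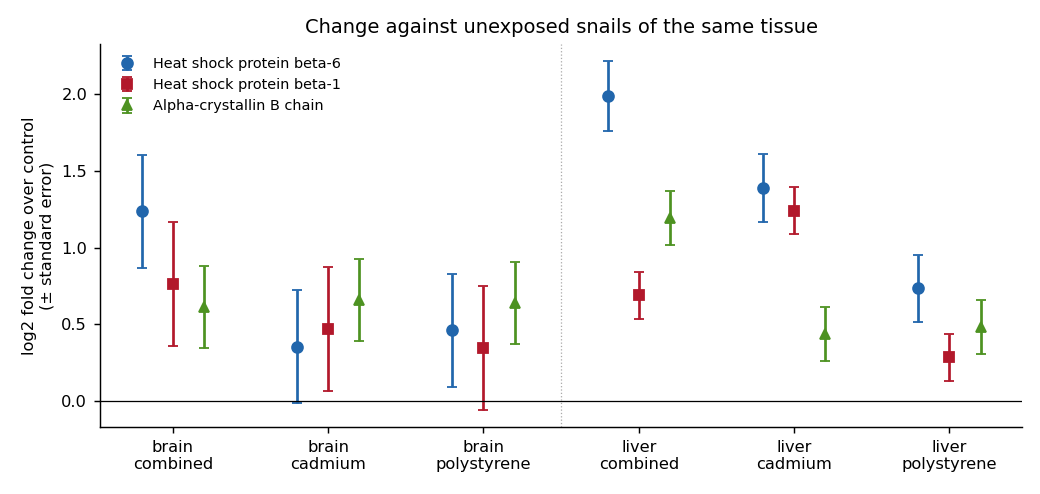
Log2 fold change over control of the same tissue (vertical axis, edgeR fit, bars are standard errors) for the 3 members in 6 exposed groups, brain on the left of the dotted line and liver on the right. Each point rests on 3 exposed and 3 control samples; the liver points are descriptions, from 0.28 for beta-1 under polystyrene to 1.99 for beta-6 under the combined exposure, and no brain point passed the adjusted threshold.

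The members also differed in level between samples labelled brain and liver. On the scale of both tissues, beta-1 averaged 49.1 ± 11.2 CPM in polystyrene brains and 17.7 ± 2.07 CPM in polystyrene livers (SD, n = 3 each), and the groups did not overlap (the share of all clusters without overlap here was not computed). That was a log2 difference of 1.47 ± 0.33 (SE, edgeR adjusted p = 0.000847, 78809 clusters tested, of which 49.7% were called). Beta-6 averaged 22.4 ± 3.77 CPM in polystyrene brains and 34.0 ± 3.25 CPM in polystyrene livers, a difference of -0.60 ± 0.33 (edgeR adjusted p = 0.133). Alpha-crystallin B chain averaged 23.3 ± 4.52 CPM in polystyrene brains and 29.2 ± 1.17 CPM in polystyrene livers, a difference of -0.33 ± 0.24 (edgeR adjusted p = 0.268). Scaling by library totals alone moved the median of all clusters in this comparison by 0.69. It turned the direction for beta-6 and Alpha-crystallin B chain (0.09 and 0.36), so no tissue direction is given for these 2, whereas beta-1 stayed higher in brain. Summed muscle markers were also higher in brain samples than in livers. Over the 24 samples Pearson's r with that sum was 0.80 for beta-1, -0.37 for beta-6 and -0.41 for Alpha-crystallin B chain. The part of muscle in the tissue difference was not tested.

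Beta-1 was also higher in brain in the unexposed snails, given as a description because the control livers are taken to have been used in the choice. The log2 difference of control brain from control liver was 1.40 ± 0.33 (SE) for beta-1, -0.34 ± 0.33 for beta-6 and -0.50 ± 0.24 for Alpha-crystallin B chain, and by library totals alone the last 2 became 0.31 and 0.15. With a library left out, the difference for beta-6 ran from -0.71 (without control brain replicate 4) to 0.02 (without control brain replicate 5) and that for Alpha-crystallin B chain from -0.80 to -0.23. The response to an exposure in brain minus that in liver was -0.76 ± 0.46 for beta-6 and -0.58 ± 0.34 for Alpha-crystallin B chain under the combined exposure, and -1.02 ± 0.46 for beta-6 and -0.76 ± 0.46 for beta-1 under cadmium. For beta-1 under the combined exposure it was 0.07 ± 0.46. With a library left out, beta-6 ran from -1.17 to -0.38 for the combined exposure and from -1.38 to -0.64 for cadmium. Over all 78809 clusters, 1.98% were called for this difference under the combined exposure, 2.23% under cadmium and 2.84% under polystyrene.

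By name, 15 clusters belonged to the family, and the 12 beside the members entered by name. Of these 12, 11 could be tested in brain and 9 in liver after the filter on low counts. In brain 3 of 11 were called higher under the combined exposure (2.13% of all clusters were called higher), 1 of 11 under cadmium (2.6%) and 1 of 11 under polystyrene (4.66%). In liver 3 of 9 were called higher under the combined exposure (2.86%), 2 of 9 under cadmium (1.66%) and 1 of 9 under polystyrene (1.58%). None was called lower by edgeR in these 6 comparisons, while DESeq2's Wald test called 1 lower in polystyrene livers and edgeR without the filter 1 lower in combined and 1 in polystyrene livers, each time Cluster-2499.83413. Over all 14 family clusters tested in brain, members included, the median log2 difference was 0.82 for the combined exposure, 0.52 for cadmium and 0.50 for polystyrene, beside medians of -0.01, -0.01 and 0.00 over all clusters tested. These family medians share the control samples, with control brain replicate 5 among them, and were not computed without it. The members' differences from control were all lower without it. Without control brain replicate 5, the count for the combined exposure was 0, that for cadmium 0 and that for polystyrene 1.

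Heat shock protein 27 (Cluster-2499.101986) had the highest level per length of the family in brain. Its level was 901, 751 and 593 CPM in combined brains, 253, 405 and 264 CPM in cadmium brains, 335, 422 and 160 CPM in polystyrene brains and 178, 147 and 295 CPM in control brains. Combined brains lay above all others. Separately, 10.1% of all clusters were higher in combined than in control brains with no overlap, 10.8% than in cadmium and 11.8% than in polystyrene brains. The share above the 3 groups at once was not computed. The log2 difference of combined from control brains was 1.86 ± 0.35 (SE, edgeR adjusted p = 0.0103). The call was lost without control replicate 5 (1.68, edgeR adjusted p = 0.0632) and without control replicate 4 (1.76, edgeR adjusted p = 0.0508). In liver its level was 13.5, 10.8 and 13.0 CPM in combined samples against 7.92, 7.14 and 7.87 CPM in controls, a difference of 0.70 ± 0.16 (edgeR adjusted p = 0.0214). The liver call was lost when combined replicate 1 or 3 or control replicate 2 or 3 was left out, with adjusted p from 0.0535 to 0.0912.

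A second cluster named Alpha-crystallin B chain (Cluster-2499.65186), which lacks the KO annotation of the members, rose with every exposure in brain and with none in liver. Its level was 37.2, 31.3 and 44.4 CPM in combined brains, 31.4, 35.4 and 37.5 CPM in cadmium brains, 48.3, 33.0 and 34.5 CPM in polystyrene brains and 23.1, 17.1 and 21.1 CPM in control brains. No exposed brain fell within the range of the controls. Of all clusters tested, 10.1% were higher than control with no overlap in combined, 12.3% in cadmium and 14.8% in polystyrene brains. The share for the 3 exposures at once was not computed. The log2 difference from control was 0.88 ± 0.20 (SE) for the combined exposure (edgeR adjusted p = 0.0239), 0.77 ± 0.20 for cadmium (edgeR adjusted p = 0.0442) and 0.92 ± 0.20 for polystyrene (edgeR adjusted p = 0.0151). In liver the means were 15.5 ± 0.64 CPM in combined, 16.2 ± 3.04 CPM in cadmium, 15.3 ± 1.09 CPM in polystyrene and 17.7 ± 1.31 CPM in control samples (SD, n = 3 each). The calls lost their side of the threshold when single libraries were left out, for cadmium in 8 of 12 cases (adjusted p up to 0.138), for the combined exposure without combined replicate 6 or control replicates 5 or 6 (up to 0.0851) and for polystyrene without polystyrene replicate 4 (0.064).

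The alpha-crystallin A chain clusters had calls in liver and none against control in brain. Alpha-crystallin A chain (Cluster-2499.79270) was at 26.8, 29.0 and 20.8 CPM in combined livers, 22.8, 20.5 and 15.9 CPM in cadmium livers, 23.1, 17.8 and 22.3 CPM in polystyrene livers and 11.4, 13.5 and 12.3 CPM in control livers. All 9 exposed livers lay above the 3 controls. Of all clusters tested, 12.2% were higher than control with no overlap in combined, 11.5% in cadmium and 12.7% in polystyrene livers. The share for the 3 exposures at once was not computed. The log2 difference from control was 1.04 ± 0.17 (SE) for the combined exposure (edgeR adjusted p = 0.00383), 0.67 ± 0.17 for cadmium (edgeR adjusted p = 0.0431) and 0.76 ± 0.17 for polystyrene (edgeR adjusted p = 0.0259). The call for the combined exposure held without any of the 12 liver libraries. That for cadmium was lost in 6 of 12 cases (adjusted p up to 0.154) and that for polystyrene in 5 of 12 (up to 0.095). In brain this cluster averaged 56.6 ± 11.0 CPM in combined and 35.2 ± 3.90 CPM in control samples (SD, n = 3 each). The brain means were 36.2 CPM under cadmium and 33.8 CPM under polystyrene. With a brain library left out, the difference for the combined exposure ran from 0.55 to 0.84 (edgeR adjusted p from 0.0799 to 0.277).

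Alpha-crystallin A chain (Fragment) (Cluster-2499.87321), which shares its NR match with the member Alpha-crystallin B chain, was at 125, 104.9 and 112 CPM in combined livers, 108, 163 and 80.6 CPM in cadmium livers, 82.7, 68.9 and 77.7 CPM in polystyrene livers and 73.8, 61.5 and 54.6 CPM in control livers. Combined and cadmium livers lay above the controls, as did 12.2% and 11.5% of all clusters with no overlap, each exposure taken separately. The log2 difference was 0.85 ± 0.21 (SE) for the combined exposure (edgeR adjusted p = 0.0317) and 0.89 ± 0.21 for cadmium (edgeR adjusted p = 0.0363). Each call was lost in 5 of 12 cases when a library was left out, with adjusted p up to 0.118 and 0.144 in that order. In brain this cluster averaged 120 ± 44.3 CPM in combined and 62.9 ± 34.5 CPM in control samples (SD, n = 3 each). The brain means were 100 CPM under cadmium and 91.6 CPM under polystyrene. With a brain library left out, the difference for the combined exposure ran from 0.55 to 1.24 (edgeR adjusted p from 0.185 to 0.547).

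The remaining family clusters that reached 5 CPM in a group, Heat shock protein beta-8 (Cluster-2499.101098) and Small heat shock protein p36 (Cluster-2499.48741), were not called against control in either tissue by edgeR with the filter on low counts. Beta-8, which in vertebrates works with the co-chaperone BAG3, averaged 137 ± 45.9 CPM in combined brains and 54.4 ± 25.4 CPM in control brains (SD, n = 3 each), a log2 difference of 1.33 ± 0.37 (edgeR adjusted p = 0.0676). DESeq2's Wald test called it (1.34, adjusted p = 0.00999), as did edgeR without the filter (1.35, adjusted p = 1.4e-05). EdgeR with the filter called it in 2 of 12 cases with a library left out (adjusted p from 0.0304 to 0.178). Without control replicate 5 the beta-8 difference was 1.05 (edgeR adjusted p = 0.177). The cluster named p36 averaged 81.2 ± 23.1 CPM in combined brains and 48.7 ± 12.1 CPM in control brains, a difference of 0.74 ± 0.33 (edgeR adjusted p = 0.274), which edgeR without the filter called (0.76, adjusted p = 0.0103). Without control replicate 5 the p36 difference was 0.55 (edgeR adjusted p = 0.528). Beta-8 and p36 were both higher in polystyrene brains than in polystyrene livers, by 2.46 ± 0.33 (edgeR adjusted p = 2.51e-06) and 1.45 ± 0.31 (edgeR adjusted p = 0.000482), as was Heat shock protein 27 by 4.22 ± 0.32 (edgeR adjusted p = 1.19e-10). Of all 78809 clusters tested between these tissues, 49.7% were called. A low cluster, alpha-crystallin B chain-like (Cluster-2499.83413), named here because it was the third brain call, was at 3.64, 4.12 and 1.34 CPM in combined brains and 0.60, 0.00 and 0.46 CPM in control brains (log2 difference 3.06 ± 0.77, edgeR adjusted p = 0.0377). The 3 combined brains lay above the 3 controls, as did 10.1% of all clusters with no overlap. This call was lost in 6 of 12 cases when a library was left out (adjusted p up to 0.109). In liver Cluster-2499.83413 averaged 1.03 ± 0.42 CPM in combined, 1.40 ± 1.42 CPM in cadmium, 0.68 ± 0.23 CPM in polystyrene and 3.59 ± 1.77 CPM in control samples (SD, n = 3 each). Its log2 difference from liver controls was -1.79 ± 0.64 for the combined exposure (edgeR adjusted p = 0.112), -1.34 ± 0.62 for cadmium (edgeR adjusted p = 0.269) and -2.38 ± 0.66 for polystyrene (edgeR adjusted p = 0.0703). For polystyrene DESeq2's Wald test gave -2.40 (adjusted p = 0.0129), and edgeR without the filter gave -2.36 (adjusted p = 7.1e-05) for polystyrene and -1.76 (adjusted p = 0.00492) for the combined exposure.

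**Figure D4:**
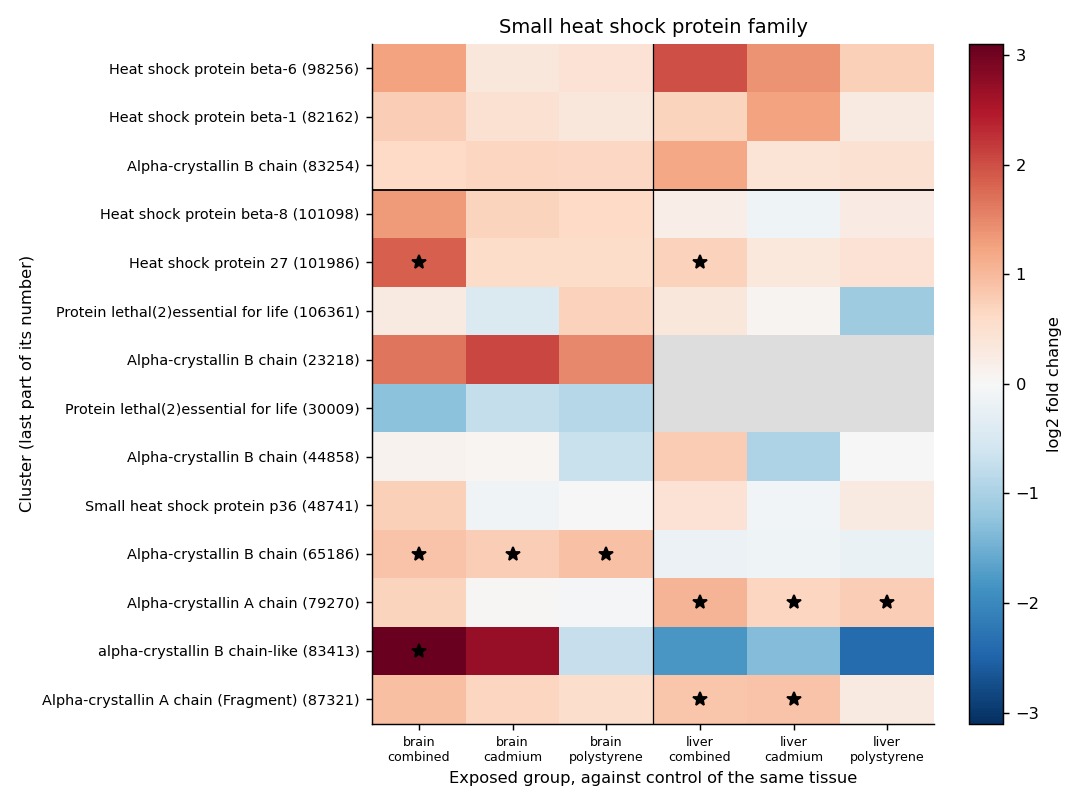
Log2 fold change over control of the same tissue (colour) for the 14 family clusters tested in brain, with the 3 members above the line and the exposed groups in columns, brain on the left. Stars mark an edgeR adjusted p under 0.05, grey marks clusters not tested in liver, and no star is drawn for members in liver. For combined brains 13 of the 14 squares are above 0, beside a median of -0.01 over all clusters tested. These squares share the same samples, and the share of all clusters above 0 was not computed. The stars of Cluster-2499.65186 stand in brain and those of the alpha-crystallin A chain clusters in liver.

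Per length the members lay in the middle of the family in brain; in control livers beta-6 and Alpha-crystallin B chain lay nearer its top and beta-1 in the middle. In control brains beta-1 averaged 11.8 ± 6.88, beta-6 6.68 ± 3.49 and Alpha-crystallin B chain 5.56 ± 2.16 CPM per kb on the scale of both tissues (SD, n = 3), ranks 5, 7 and 9 of 15, and Heat shock protein 27 averaged 100.4 CPM per kb. In control livers beta-1 averaged 4.49 ± 0.37, beta-6 8.47 ± 0.46 and Alpha-crystallin B chain 7.85 ± 0.81 CPM per kb, ranks 7, 3 and 4 of 15. In combined livers beta-6 reached 34.2 ± 13.1 CPM per kb and ranked 2 of 15, behind the alpha-crystallin A chain fragment.

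**Figure D5:**
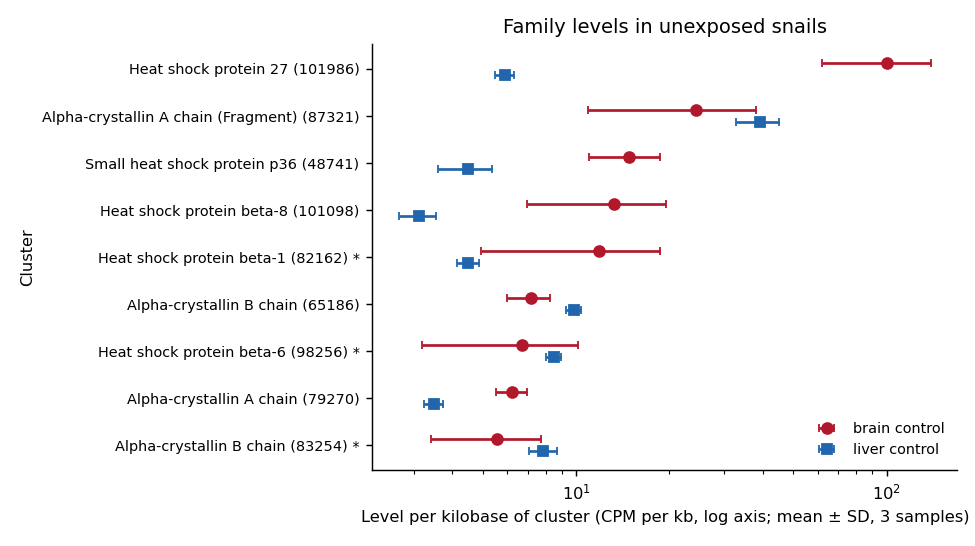
Level per kilobase of cluster (CPM per kb on the scale of both tissues, logarithmic axis) of the 9 family clusters that reached 5 CPM in a group, in control brains (circles) and control livers (squares). Symbols are means and bars SD of 3 samples, and asterisks mark the members; Heat shock protein 27 stands at 100.4 in brain and 5.91 in liver, while beta-6 and Alpha-crystallin B chain lie within 5.56 to 8.47 in both tissues.

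Among the samples, beta-6 and Alpha-crystallin B chain varied together while beta-1 followed a course of its own across tissues. Over all 24 samples Pearson's r of log2(CPM + 1) was 0.88 between beta-6 and Alpha-crystallin B chain, 0.08 between beta-6 and beta-1 and -0.01 between beta-1 and Alpha-crystallin B chain. Within the 12 livers these were 0.86, 0.70 and 0.36, and within the 12 brains 0.80, 0.92 and 0.89. These are descriptions over samples that share tissue, exposure and library scaling. Of 10113 named clusters at 5 CPM or more over the 24 samples, the most like beta-6 was the alpha-crystallin A chain fragment (r = 0.90), which was also the most like Alpha-crystallin B chain (r = 0.88). The most like beta-1 were Laminin subunit beta-1 (r = 0.93), Caspase-2 (r = 0.91) and Aquaporin-4 (r = 0.90). Within livers the most like were Macrophage receptor MARCO for beta-6 (r = 0.95), Ubiquitin for beta-1 (r = 0.90) and CXXC motif containing zinc binding protein for Alpha-crystallin B chain (r = 0.90). Within brains they were Xanthine dehydrogenase/oxidase for beta-6 (r = 0.97), the alpha-crystallin A chain fragment for beta-1 (r = 0.97) and Protein SpAN for Alpha-crystallin B chain (r = 0.98).

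By edgeR with the filter, few clusters were called among the chaperones that take over substrates from small heat shock proteins. The HSP70 family nevertheless had a raised median in cadmium brains. Of the HSP70 family, 11 of 19 clusters were tested in each tissue; by edgeR 1 rose under cadmium in brain (2.6% of all clusters were called higher), 2 rose under the combined exposure in liver (2.86%), 0 were called in the other 4 comparisons with control and 0 were called lower. Of these 66 tests, 22 had an unadjusted p under 0.05. DESeq2's Wald test called 8 higher, 5 of them in cadmium brains, and 1 lower. Without the filter edgeR called 12 higher, 7 of them in cadmium brains (18 clusters tested), and 3 lower. Heat shock protein 70 B2 (Cluster-2499.57688), an inducible HSP70 in insects, averaged 118 ± 90.7 CPM in cadmium brains and 10.1 ± 4.77 CPM in control brains (SD, n = 3 each; log2 difference 3.54 ± 0.59, edgeR adjusted p = 0.00821), and the call held without any of the 12 brain libraries. Another cluster of that name (Cluster-2499.75467) averaged 15.9 ± 3.46 CPM in combined livers and 9.09 ± 1.75 CPM in control livers (0.80 ± 0.19, edgeR adjusted p = 0.0272). Heat shock 70 kDa protein (Fragment) (Cluster-2499.104474) averaged 12.7 ± 2.70 CPM in combined livers and 6.44 ± 2.77 CPM in control livers (0.99 ± 0.27, edgeR adjusted p = 0.0464). These calls were lost in 5 and 8 of 12 cases when a liver library was left out, with adjusted p up to 0.0906 and 0.16. The median log2 difference of the HSP70 family under cadmium was 1.51 in brain and 0.21 in liver. Over all clusters tested it was -0.0077 in brain and -0.0019 in liver.

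Among 36 tested J-domain co-chaperones, which deliver substrates to HSP70, edgeR called 1 higher under polystyrene in brain (4.66% of all clusters), 1 under cadmium in liver (1.66%) and 1 under polystyrene in liver (1.58%), and 1 lower under the combined exposure in each tissue. A count of 1 in 36 is near these background shares. DnaJ homolog subfamily B member 5 (Cluster-2499.86732) averaged 126 ± 19.4 CPM in cadmium livers and 84.6 ± 7.41 CPM in control livers (SD, n = 3 each; 0.58 ± 0.13, edgeR adjusted p = 0.0222). DnaJ homolog subfamily C member 14 (Cluster-2499.82180) averaged 29.8 ± 4.15 CPM in polystyrene brains and 17.1 ± 2.93 CPM in control brains (0.80 ± 0.19, edgeR adjusted p = 0.0215). The remaining calls were DnaJ homolog subfamily C member 25 (Cluster-2499.103852) in polystyrene livers at 1.01 ± 0.25 (edgeR adjusted p = 0.0437), subfamily B member 13 (Cluster-2499.108277) in combined livers at -1.71 ± 0.37 (edgeR adjusted p = 0.0167) and subfamily C member 16 (Cluster-2499.127765) in combined brains at -1.62 ± 0.39 (edgeR adjusted p = 0.0313). Each of these 5 calls was lost when some library was left out, from 2 of 12 cases for subfamily B member 13 to 7 of 12 for subfamily C member 25. In combined livers edgeR also called 26 of 89 ciliary marker clusters lower and 2 higher (6.24% of all clusters in either direction). These markers carry axonemal, cilia- and flagella-associated, tektin or radial spoke names. Whether the fall of subfamily B member 13 belongs with them was not tested.

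No cluster of the HSP90 family (2 tested in brain and 1 in liver), of HSP60, HSP10 and HSP110 (4 tested in each tissue), of the BAG co-chaperones and heat shock factors (4 tested in each tissue) or of the ubiquitin receptors and stress kinases (4 tested in each tissue) was called by edgeR against control in any of the 6 comparisons. At an unadjusted p under 0.05 these lists held 2 of 9, 2 of 24, 1 of 24 and 2 of 24 tests in that order, and DESeq2's Wald test called 1, 0, 1 and 0. The heat shock factors drive transcription of heat shock genes, and the list that holds them had medians between -0.05 and 0.18 on the log2 scale.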

How the data were processed

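RNA of 24 snail samples (Rneasy mini plus kit, SMARTER mRNA-Seq kit, per the labels' protocols) was given as a table of expected counts for each assembled cluster, which the authors deposited as raw counts per the file headers; between 8.0% and 14.1% of the nonzero values per sample were not whole. How clusters were assembled and reads assigned to them is not given in the sources used here, and the build named in the submitters' processing notes was not used. Cluster length and names came from the same deposited table, without strand information.

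Rounded counts went into edgeR 4.0.16 (R 4.3.3; filterByExpr at 10 counts, TMM, a mean per group, robust quasi-likelihood test, Benjamini-Hochberg adjustment over all clusters tested): 12 samples of a tissue in each fit, and 24 for comparisons between tissues. The filter kept 64046 clusters in brain, 55762 in liver and 78809 over both; all 3 members passed in each. Calls needed an adjusted p below 0.05. The SE is the log2 fold change divided by the square root of F. The script recovered known changes when tested on simulated data with a common spread for all clusters. That check does not give the power of the brain comparisons. DESeq2 1.42.0, other scalings, filters, sample sets and left-out libraries were tried.

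The members and gene lists were chosen with earlier results of these data known. Named clusters were the members, other family clusters at a mean of 5 CPM or more in a group, up to 2 called clusters per chaperone list, direction and comparison with control, and the 5 named clusters most like each member, of which a few are printed.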

Additional observations from a re-analysis of the deposited data

Results flagged for a closer look

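The second cluster named Alpha-crystallin B chain (Cluster-2499.65186) responded differently in the 2 tissues. Its response to the combined exposure in brain minus that in liver was 1.08 ± 0.25 (SE) on the log2 scale (edgeR interaction test, adjusted p = 0.0254), from 0.88 in brain and -0.19 in liver. Its response to polystyrene differed by 1.15 ± 0.25 (edgeR adjusted p = 0.013), from 0.92 in brain and -0.21 in liver. For cadmium the difference was 0.91 ± 0.25 (edgeR adjusted p = 0.0568), which missed the threshold. When each of the 24 libraries was left out in turn, the difference for polystyrene was called in 24 cases and that for the combined exposure in 17, with adjusted p up to 0.074.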

How the results depend on the processing

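The direction and the side of the threshold of the members' results held under DESeq2 size factors, under a filter of 1 CPM in 3 samples and in fits of the 6 samples compared. Without the filter on low counts beta-6 passed the threshold in combined brains against control (1.25, edgeR adjusted p = 5.9e-06), against cadmium (0.86, 0.00851) and against polystyrene (0.76, 0.0312), and in polystyrene brains against livers (-0.55, 0.0408); DESeq2's Wald test gave 1.25 (adjusted p = 0.0222) for combined brains against control. The cause was not tested. Scaling by library totals alone, an alternative chosen after seeing the data, moved the median of all clusters in the tissue comparisons by 0.63 (control) and 0.69 (polystyrene). Under it beta-6 gave 0.31 for control and 0.086 for polystyrene brain over liver, Alpha-crystallin B chain 0.15 and 0.36, and Alpha-crystallin B chain -0.051 for cadmium against polystyrene brains.

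The number of family clusters called higher changed as follows, with the list's alternatives on filter-free, 6-sample, block and left-out-library fits chosen after seeing the data. DESeq2's Wald test called 3 for cadmium brains, 5 for combined brains and 2 for polystyrene livers, and edgeR without the filter called 3, 6 and 2 for the same groups. Fits of 6 samples called 0 for cadmium brains, 1 for combined brains, 2 for cadmium livers and 2 for polystyrene livers, and library totals alone 2 for cadmium livers. With each library left out, the counts ran from 0 to 1 for cadmium brains, 0 to 4 for combined brains, 0 to 1 for polystyrene brains, 2 to 4 for cadmium livers, 3 to 6 for combined livers and 0 to 2 for polystyrene livers.

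With each library left out, Alpha-crystallin B chain ran from -0.12 to 0.15 for cadmium against polystyrene brains, -0.25 to 0.093 for combined against cadmium brains, -0.24 to 0.11 for combined against polystyrene brains, and, brain minus liver, -0.018 to 0.55 for cadmium, -0.84 to -0.27 for the combined exposure and -0.089 to 0.48 for polystyrene. Beta-1 ran from -0.028 to 0.32 for cadmium against polystyrene brains, -0.065 to 0.46 for combined against cadmium brains, -0.49 to 0.31 for the departure from additivity, -0.021 to 0.78 for polystyrene brains against control and, brain minus liver, -1.15 to -0.32 for cadmium and -0.32 to 0.51 for the combined exposure. Beta-6 ran from -0.24 to 0.024 for cadmium against polystyrene brains.

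The 6 other family clusters at 5 CPM or more changed direction only where their difference was not called. Under library totals alone Cluster-2499.79270 gave 0.055 for polystyrene brains against control and Cluster-2499.87321 gave 0.30 for polystyrene brains against livers. Cluster-2499.48741 gave, for polystyrene brains against control, 0.0027 by DESeq2's Wald test and by its size factors, 0.027 without the filter and 0.013 in 6 samples, and 0.019 without the filter for cadmium, brain minus liver. With each library left out, Cluster-2499.79270 ran from -0.11 to 0.24 for cadmium and -0.14 to 0.091 for polystyrene brains against control, and -0.072 to 0.19 for polystyrene brains against livers. Cluster-2499.87321 ran, brain minus liver, from -0.60 to 0.12 for cadmium, -0.31 to 0.40 for the combined exposure and -0.11 to 0.60 for polystyrene, and Cluster-2499.101986 from -0.17 to 0.49 for polystyrene. In cadmium livers against control, Cluster-2499.65186 ran from -0.27 to 0.015 and Cluster-2499.101098 from -0.29 to 0.10. Cluster-2499.48741 ran from -0.48 to 0.094 for cadmium brains, -0.21 to 0.25 for polystyrene brains and -0.31 to 0.058 for cadmium livers against control, and from -0.40 to 0.23 for cadmium, brain minus liver.

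Over all clusters, DESeq2's Wald test and edgeR without the filter called 4815 and 5995 in combined brains against control beside 2513, 4977 and 5972 in cadmium brains beside 2782, 7089 and 7619 in polystyrene brains beside 4536, 5605 and 7214 in combined livers beside 3482, 3567 and 5436 in cadmium livers beside 1930, and 3178 and 4784 in polystyrene livers beside 1750. Fits of 6 samples called 1340 in combined brains, 2791 in polystyrene brains and 2267 in combined livers. Replicate numbers are shared within a tissue, but no label ties them to an animal or batch. Deviations of same-numbered samples correlated at -0.165 to 0.185 in brain (4 of 18 pairs above 0.1) and -0.122 to 0.141 in liver (1 of 18). With the number as a replicate block, combined brains held 2 family calls and 2031 calls over all clusters; the block changed no call of a member. No paired analysis was possible between tissues because they share no number. With 3 samples a group and brain standard errors of 0.26 to 0.57, the precision in brain is limited.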
